A study of Mus musculus with 20 samples.

Results

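The abdominal aorta of mice infused with angiotensin II (Ang II) was compared between animals labelled KO and wild-type (WT) animals, in a series whose title names the kinase DAPK1. The comparison takes 10 of the 20 libraries: 5 labelled KO Ang II and 5 labelled WT Ang II, chosen by their titles. It covers the 30974 annotated transcripts that were listed both in the tables of the WT libraries and in those of the KO Ang II libraries, out of 34552 listed in either. These transcripts were also added up per gene, which gave 14583 of 15346 listed genes.

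In the whole study, 4 groups of 5 animals (WT or KO, given saline or Ang II) were profiled by RNA sequencing to find which genes and pathways differ. Both groups compared here received Ang II at 500 ng/kg/min, and total RNA (1 µg) of abdominal aorta, extracted with TRIzol, was made into libraries with a NEBNext Ultra RNA kit. The WT saline libraries are given where they serve as a background. The labels give the genotype only as KO: the deleted part of the gene, whether the deletion is confined to a cell type, and the strain, sex and age of the mice and the length of the infusion are not stated in the labels used here. Libraries are called by genotype label and animal number, as WT519, WT536, WT568, WT580 and WT581 and KO402, KO537, KO560, KO612 and KO628.

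DAPK1, death-associated protein kinase 1, is a serine/threonine kinase that is switched on by calcium-bound calmodulin and is known for its part in cell death and autophagy. It can phosphorylate the regulatory light chain of myosin. Phosphorylation of this light chain, by myosin light chain kinase and related kinases, lets smooth muscle contract, and myosin phosphatase, which is held back by RhoA and ROCK, reverses it. Ang II acts on its type 1 receptor on smooth muscle cells to raise calcium and narrow arteries, and long infusion is a common way to raise blood pressure in mice.

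The values are read here as FPKM, a count of sequenced fragments divided by transcript length and by library size, a unit inferred from the steps between values and named in no label or header. From these steps, depth came to 59.0 to 74.4 megareads in WT and 70.1 to 73.5 megareads in KO. The shared annotated transcripts held 84.3% to 86.9% of the FPKM listed for a library, most of the rest being on transcripts that the authors assembled and that no gene name accompanies. Over all tested genes, the mean Pearson's r was 0.909 between libraries of the same group (20 pairs) and 0.902 between libraries of different groups (25 pairs), so that the groups were nearly as alike as the animals within them. WT580 correlated more closely with the 5 KO libraries (mean r = 0.919) than with the other WT libraries (mean r = 0.898). WT and KO libraries stand in separately made tables with different transcript sets, so table and genotype cannot be told apart. The labels number each library by animal and say nothing of litters or days, so p-values measure only the spread between these libraries. In these pieces of tissue, fewer cells of a type and less RNA per cell cannot be told apart.

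Dapk1 itself was still measured in the libraries labelled KO. The only Dapk1 transcript listed for both groups was the full-length protein-coding Dapk1-202 (ENSMUST00000077453, 5491 nt in 26 exons, GRCm38 chromosome 13, 60601957 to 60762801). Its FPKM were 9.16, 19.9, 3.96, 9.50 and 11.1 in WT519, WT536, WT568, WT580 and WT581. In KO402, KO537, KO560, KO612 and KO628 they were 4.51, 9.46, 0.514, 6.51 and 2.73. Only KO560 and KO628 lay below the lowest WT library, WT568, and KO537 was level with WT580. The difference in mean log2(FPKM + 1), KO minus WT, was -1.15 ± 0.52 (SE) with an adjusted p of 0.697 in limma, and the exact two-sided permutation test of this gene over its 252 regroupings gave p = 0.0794, where the smallest it can give is 0.00794.

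KO560, the library with the least Dapk1-202, held 13.3 FPKM of a second full-length transcript, Dapk1-207, which has a longer coding sequence (4326 against 4290 nt) and lacks a stretch of 493 bases near the 3′ end. In the other 4 KO libraries Dapk1-207 stood at 0.0223 to 0.344 FPKM. It is not listed for the WT libraries, and neither is Dapk1-205, a short transcript that retains an intron, at 0 to 2.08 FPKM in the KO libraries. With both added and taken as 0 in WT, the Dapk1 difference shrank to -0.22. Since the deleted exons are not known, these values do not show whether the remaining RNA could code for the kinase, and the KO groups below are libraries labelled KO.

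**Figure D1:**
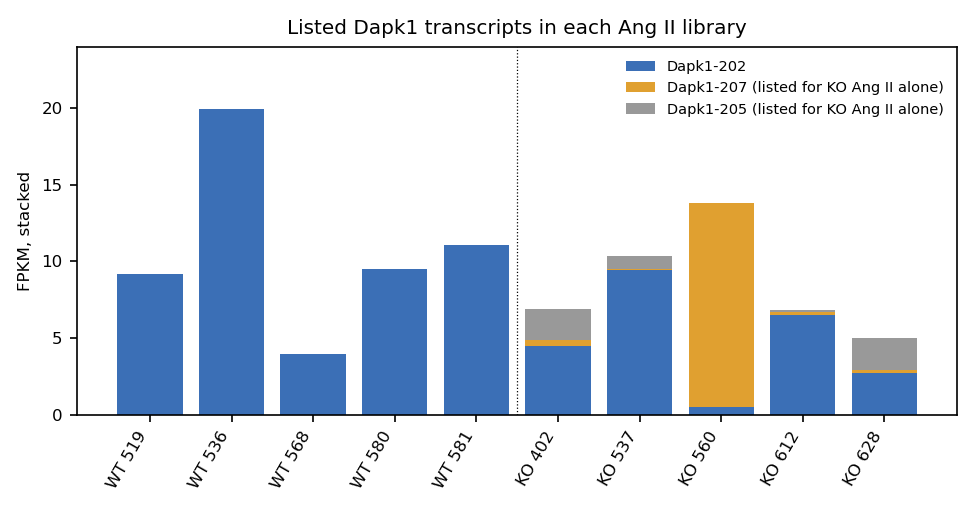
FPKM (y axis, stacked) of the 3 listed Dapk1 transcripts in each Ang II library (x axis), with WT left and KO right of the dotted line. Dapk1-202 runs from 3.96 to 19.9 in WT and from 0.514 to 9.46 in KO, and KO560 is made up almost wholly of Dapk1-207.

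On chromosome 13, 114 tested genes, Dapk1 itself included, started within 10 megabases of the start of Dapk1. Their median difference was -0.02, 54 of them had a higher mean in KO, and 1 had groups that did not overlap, with KO lower, as did 0.509% of all tested genes. That gene was Simc1, at 1.6 to 2.5 FPKM in WT and 0.265 to 1.58 in KO.

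Across the transcriptome 1 transcript passed the test and no gene did. Of 12577 genes with a mean of at least 1 FPKM, 0 (0%) had an adjusted p under 0.05 in limma. At an unadjusted p under 0.05 there were 832 genes, the smallest adjusted p was 0.696, and limma-voom on the recovered reads also called 0, with 731 at an unadjusted p under 0.05. The 5 KO libraries lay above all 5 WT libraries for 49 genes (0.39%) and below all of them for 64 (0.509%). Of the 252 regroupings of these libraries, 1 puts KO wholly above WT and 1 wholly below. The smallest p of the exact permutation test, 0.00794, is thus also the rate of non-overlap from regrouping alone. The 113 genes without overlap among 12577 were close to that rate, so lack of overlap alone does not set a gene apart. The same rate applies to single transcripts and shares. The median difference over all genes was -0.01, and 47.6% had a higher mean in KO. The count without overlap depended most on WT580, since leaving it out gave 573 genes in place of 113, while leaving out any other library gave 153 to 306, a count that fewer libraries raise by construction.

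Among 20773 single transcripts, 1 passed (0.00481%), with 1337 at an unadjusted p under 0.05. KO lay above WT in all libraries for 87 transcripts (0.419%) and below for 121 (0.582%), a split that became 118 and 98 under median-of-ratios scaling. For shares, a gene's FPKM was the sum of its annotated transcripts listed for both groups. Transcripts listed for only 1 group and those that the authors assembled were left out of it. The share of its gene's FPKM that a transcript took was tested for 9445 transcripts. None passed in limma (0%) and the smallest adjusted p was 0.058. At an unadjusted p under 0.05 there were 293 with a higher and 262 with a lower share in KO, and limma-voom was not run on shares. Shares did not overlap for 53 transcripts that were higher in KO (0.561%) and for 47 that were lower (0.498%).

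The transcript that passed was Med15-201. MED15 is a tail subunit of Mediator, the complex that links transcription factors bound to DNA with RNA polymerase II. Med15 lies on the minus strand of chromosome 16 (GRCm38, 17651208 to 17732891), and its 2 listed transcripts differ in a coding exon of 120 bases at chr16:17663377-17663496, which Med15-201 (coding length 2367 nt) contains and Med15-202 skips. Outside the coding sequence Med15-201 has a further 50 and 10 bases that Med15-202 lacks, and which of these stretches the reads fell on is not known from the values. The exon is printed as the coding difference between the forms, from the GENCODE M21 transcripts, on the coding strand, in capitals between 15 flanking bases on each side, followed by the join that Med15-202 has in its place.
Med15-201 with the exon: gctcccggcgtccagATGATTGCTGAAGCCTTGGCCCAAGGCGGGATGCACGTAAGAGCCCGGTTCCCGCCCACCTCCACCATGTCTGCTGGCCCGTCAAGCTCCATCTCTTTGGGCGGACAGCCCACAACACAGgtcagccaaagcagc
Med15-202 without it: gctcccggcgtccaggtcagccaaagcagc

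Med15-201 stood at 1.38, 1.84, 2.02, 1.83 and 1.66 FPKM in WT519, WT536, WT568, WT580 and WT581. It stood at 6.76, 8.65, 9.09, 11.0 and 5.94 FPKM in KO402, KO537, KO560, KO612 and KO628. Every KO library was thus well above every WT library, and the WT libraries lay close together. The form with the exon rose in KO by 1.73 ± 0.18 (SE) in log2(FPKM + 1), with an adjusted p of 0.0375 in limma. Across 22 alternative settings the difference stayed between 1.64 and 2.19, and it passed in 11 of them, with adjusted p from 0.0148 to 0.705. Leaving out 1 library at a time ended the call for WT519, WT568, KO537 and KO560, with adjusted p up to 0.182. In WT saline libraries Med15-201 ranged from 1.13 to 8.16 FPKM, which reaches into both groups.

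Med15-202, without the exon, did not mirror it. Its FPKM were 2.32, 5.78, 4.09, 3.24 and 2.96 in the WT libraries, in the order above, and 3.53, 2.64, 2.52, 3.06 and 2.06 in the KO libraries, so that the groups overlapped. The form with the exon made up 24.1% to 37.3% of Med15 in WT and 65.7% to 78.3% in KO (adjusted p = 0.058 in limma for the share). The gene's sum was 5.42 ± 1.5 FPKM in WT and 11.0 ± 2.19 in KO (SD, n = 5), with 3.7 to 7.62 against 8.0 to 14 FPKM, a difference of 0.92 ± 0.19 (SE) that did not pass.

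The shares with the next smallest p were those of Prkab1-201, Dctn1-202, Rubcn-201 and Irak3-201, none of which passed (adjusted p of 0.162 to 0.164 in limma). Prkab1 codes for a beta subunit of AMP-activated protein kinase, the sensor of low cellular energy. Prkab1-201 took 7.33%, 7.54%, 9.31%, 10.01% and 4.06% of the gene's FPKM in the WT libraries and 41.3%, 39.1%, 41.4%, 21.1% and 34.1% in the KO libraries. The groups were apart, and WT saline, at 24.4% to 31.8%, lay within the KO range. Prkab1-201 and Prkab1-202 code for the same 810 nt and differ outside the coding sequence, so the contrast is one of untranslated exons. Prkab1-202 was at 4.62 to 8.61 FPKM in WT and at 0.779 to 4.72 in KO.

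Irak3 codes for a pseudokinase that restrains Toll-like receptor signalling. Irak3-201, the full-length coding form, was at 1.17, 3.24, 1.62, 1.96 and 1.53 FPKM in WT and at 6.08, 5.85, 5.01, 3.99 and 2.33 in KO, where only KO628 fell within the WT range. Irak3-202, annotated as a target of nonsense-mediated decay, the pathway that removes RNAs with an early stop codon, was at 1.97 to 4.70 FPKM in WT. It was listed at 0 in all KO libraries other than KO628, which had 1.38 FPKM. The share of Irak3-201 was 37.3% ± 7.65 in WT and 92.6% ± 16.6 in KO (SD, n = 5), and it reached 100% in WT saline. Without KO628 the share of Irak3-201 passed (adjusted p = 0.00467 in limma), the one of 20 alternatives in which it did (up to 0.769).

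Rubcn codes for Rubicon, a protein that slows autophagy and endocytic traffic. Rubcn-201 was at 8.91, 7.87, 6.91, 6.59 and 8.43 FPKM in WT and at 2.45, 4.24, 4.13, 5.23 and 2.65 in KO, with no overlap, and its share was 59.0% to 83.1% against 34.1% to 46.6%. In WT saline that share ran from 15.6% to 78.5%, which reaches into both groups. Rubcn-202, which carries 45 more coding bases at chr16:32841537-32841581 (GRCm38, minus strand), was at 0 to 0.00833 FPKM in WT. In KO402, KO537, KO560 and KO628 it was at 2.08, 2.87, 1.85 and 1.27 FPKM, and in KO612 at 0.0128. Rubcn-202 fell below the mean of 1 FPKM that the test of single transcripts required and was not tested. The extra bases, in capitals between 15 flanking bases on the coding strand, are printed with the join of Rubcn-201, since they mark the form that was nearly absent from the WT Ang II libraries.
Rubcn-202 with the extra bases: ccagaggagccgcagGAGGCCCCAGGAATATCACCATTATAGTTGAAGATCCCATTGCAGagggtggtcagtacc
Rubcn-201 without them: ccagaggagccgcagagggtggtcagtacc

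Dctn1 codes for the large subunit of dynactin, which couples the motor dynein to its cargo. Dctn1-202 took 0.146%, 0.341%, 0.0324%, 11.2% and 15.7% of the gene's FPKM in the WT libraries and 68.1%, 72.0%, 70.1%, 26.3% and 66.0% in the KO libraries. The longer coding form Dctn1-201 was at 1.92 to 29.7 FPKM in WT and 1.48 to 3.99 in KO, and the groups overlapped. The share of Dctn1-202 in WT saline ran from 0.0275% to 61.0%, nearly the whole range seen in the Ang II libraries.

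**Figure D2:**
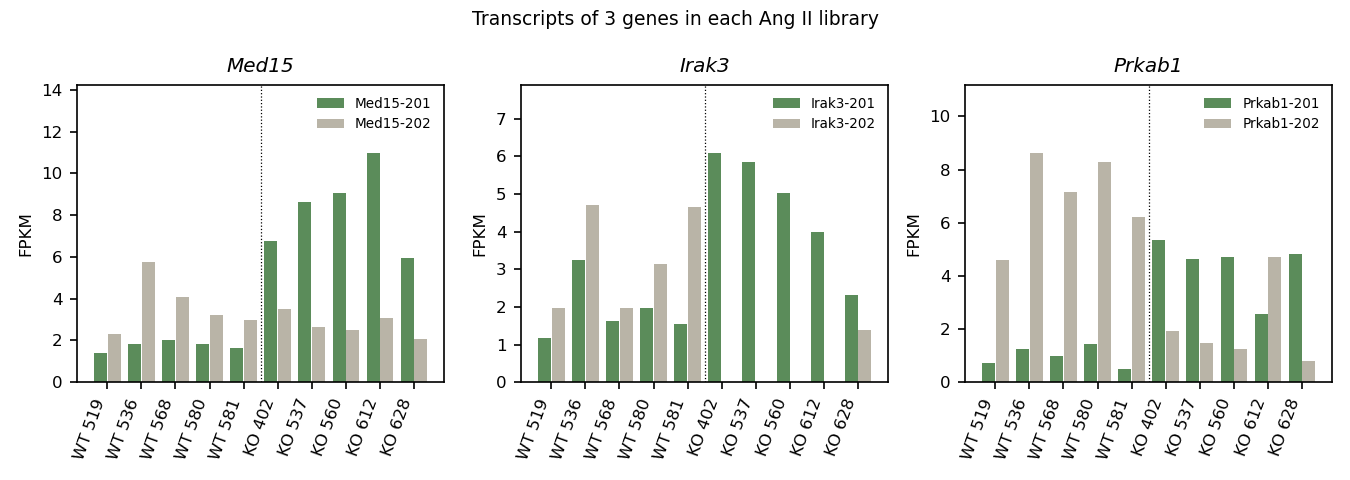
FPKM (y axis) of the 2 main transcripts of Med15, Irak3 and Prkab1 in each Ang II library (x axis, WT left and KO right of the dotted line). Med15-201 is at most 2.02 in WT and at least 5.94 in KO, and Irak3-202 is present in every WT library and in 1 KO library.

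Other single transcripts were named for the largest differences without overlap, so that their separated levels follow from that choice. None of them passed in the main test. Iscu-203, a transcript of the scaffold protein for iron-sulphur clusters, was at 5.41, 18.0, 5.95, 27.6 and 6.49 FPKM in WT and at 0.383, 0, 0, 0.451 and 0 in KO (difference -3.29 ± 0.42, adjusted p = 0.103 in limma). Iscu-201, the main form, was at 24.3 to 67.7 FPKM in WT and 55.4 to 71.4 in KO, and exceeded Iscu-203 in all libraries other than WT580. Without WT580, Iscu-203 passed with an adjusted p of 0.0338 in limma, within a range of 0.0338 to 0.809 over its alternatives. In WT saline it ran from 2.22 to 23.7 FPKM.

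Tgfb1i1-203, a short coding transcript of the focal adhesion protein Hic-5, was at 0.0805 to 0.702 FPKM in WT and at 4.00, 51.1, 1.98, 3.68 and 35.4 in KO, while WT saline libraries ranged from 0.0151 to 103. Ap1g1-201, which codes for a subunit of the AP-1 clathrin adaptor, was at 0.648 to 1.16 FPKM in WT and at 10.8, 1.28, 8.68, 8.83 and 8.63 in KO. Ap1g1-201 passed in 1 of 21 alternatives, the one that leaves out KO537, the library nearest to WT (adjusted p = 0.00144 in limma, and up to 1 in the others). In WT saline Ap1g1-201 ran from 1.06 to 11.3 FPKM, which reaches into both groups. Tmem70-203, of a factor for assembly of ATP synthase, was at 0.114 to 1.72 FPKM in WT and 2.18 to 11.7 in KO, and Yaf2-201, of a Polycomb-associated protein, at 0.385 to 4.92 and 5.69 to 8.97. Their WT saline ranges, 0.561 to 19.0 and 0.433 to 10.03 FPKM, again reached into both groups.

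Among the transcripts with KO below WT, Ptms-205, a processed transcript of the parathymosin gene, was the most abundant at 161 to 274 FPKM in WT and 34.4 to 157 in KO. Tns1-207, of the focal adhesion protein tensin 1, was at 5.24 to 53.5 FPKM in WT and 0.122 to 4.74 in KO. Pi16-201, of a peptidase inhibitor made by adventitial fibroblasts, was at 5.26 to 14.2 and 0 to 3.50 FPKM, while its longer coding form Pi16-202 overlapped, at 18.5 to 36.3 and 18.2 to 77.4. Epb41l2-207, of a protein that ties actin to the membrane, was at 9.50 to 27.6 and 0.408 to 9.22 FPKM, and Nutf2-202, of the carrier that returns Ran to the nucleus, at 4.11 to 9.49 and 0.0633 to 3.29. Their WT saline ranges reached into the KO range for all 5 of these transcripts.

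Gene sums gave 36 named genes with an unadjusted p under 0.01 and without overlap between the groups, 12 higher and 24 lower in KO. None of them passed, and the 10 largest differences in each direction are described. Phf2, a histone demethylase of the Jumonji family, had the largest. Its FPKM were 0.00877, 0.00926, 0.615, 3.25 and 0.0263 in the WT libraries and 9.88, 3.67, 12.0, 13.2 and 14.3 in the KO libraries, a difference of 2.86 ± 0.46 (SE). KO537 came close to WT580, and WT saline libraries ranged from 0.00825 to 29.1 FPKM, from none to more than any KO library. Phf2 rests on a single shared transcript, and without WT580 it passed (adjusted p = 0.0354 in limma; 0.0354 to 0.9998 over its 23 alternatives).

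Rundc3a, a neuronal effector of small GTPases, was at 0, 0.00903, 0.822, 0.667 and 0.255 FPKM in WT and at 7.0, 13.8, 3.63, 1.17 and 1.3 in KO. The spread within KO was wide, and KO402, KO537 and KO560 were also the 3 libraries with the highest levels of sympathetic neuron genes, given below. Ywhaz, a 14-3-3 protein that binds phosphorylated partners, was at 25.8 to 36.9 FPKM in WT and 37.6 to 113 in KO. Ndufaf5, an assembly factor of respiratory complex I, was at 2.34, 2.55, 3.01, 3.56 and 4.32 FPKM in WT and at 7.74, 5.92, 5.97, 6.53 and 5.45 in KO. The difference of Ndufaf5 was 0.83 ± 0.16 (SE).

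Fscn1, the actin-bundling protein fascin, was at 2.93 ± 0.65 FPKM in WT and 6.19 ± 1.97 in KO (SD, n = 5). Eif4g1, the scaffold of the cap-binding complex in translation, was at 27.7 ± 3.68 and 47.7 ± 16.9 FPKM. Exosc5, a subunit of the RNA exosome, was at 2.87 ± 0.868 and 5.33 ± 1.60. Stard4, a carrier of cholesterol between membranes, and Snhg5, a host RNA for small nucleolar RNAs, had smaller differences of 0.51 and 0.49.

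In the opposite direction, Nexn, nexilin, an actin-binding protein of muscle, was at 46.5, 18.3, 55.2, 22.3 and 18.8 FPKM in WT and at 6.86, 11.9, 14.1, 13.5 and 9.13 in KO, a difference of -1.34 ± 0.34 (SE). Atp1b2, a beta subunit of the sodium-potassium pump, was at 25.7, 15.4, 12.8, 15.9 and 23.1 FPKM in WT and at 7.30, 8.83, 11.5, 1.52 and 7.40 in KO. For both genes the groups came within 5 FPKM of each other, at WT536 for Nexn and WT568 for Atp1b2.

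Mylk2, myosin light chain kinase of skeletal muscle, was at 5.78, 6.57, 8.08, 7.19 and 5.85 FPKM in WT and at 2.30, 4.66, 3.46, 2.66 and 3.98 in KO (difference -0.82 ± 0.17, SE). It comes from a single transcript, and WT saline libraries ranged from 3.25 to 10.3 FPKM, which reaches into both groups. Mylk2 was highest in WT568 and the skeletal muscle markers in WT580, and a link between them was not tested. Gas2l1, which links actin to microtubules, was at 6.68 to 11.9 and 1.36 to 5.73 FPKM, and Epb41l1, a membrane skeleton protein, at 4.98 to 8.43 and 1.62 to 4.87. Chst3, a sulphotransferase that modifies chondroitin chains of the matrix, was at 4.18 to 7.97 and 0.961 to 4.16 FPKM, the groups nearly touching.

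Rnf13, a membrane-bound ubiquitin ligase of endosomes, was at 14.2 to 29.8 FPKM in WT and 10.2 to 13.5 in KO. Tacc2, a centrosomal protein, was at 7.45 to 28.6 and 4.70 to 6.02. Mob4, a member of the STRIPAK phosphatase complex, was at 19.1 to 26.3 and 6.66 to 19.0, and Plac9b at 36.7 to 67.2 and 18.9 to 34.9. Reads of Plac9b may be shared with its close paralogue.

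**Figure D3:**
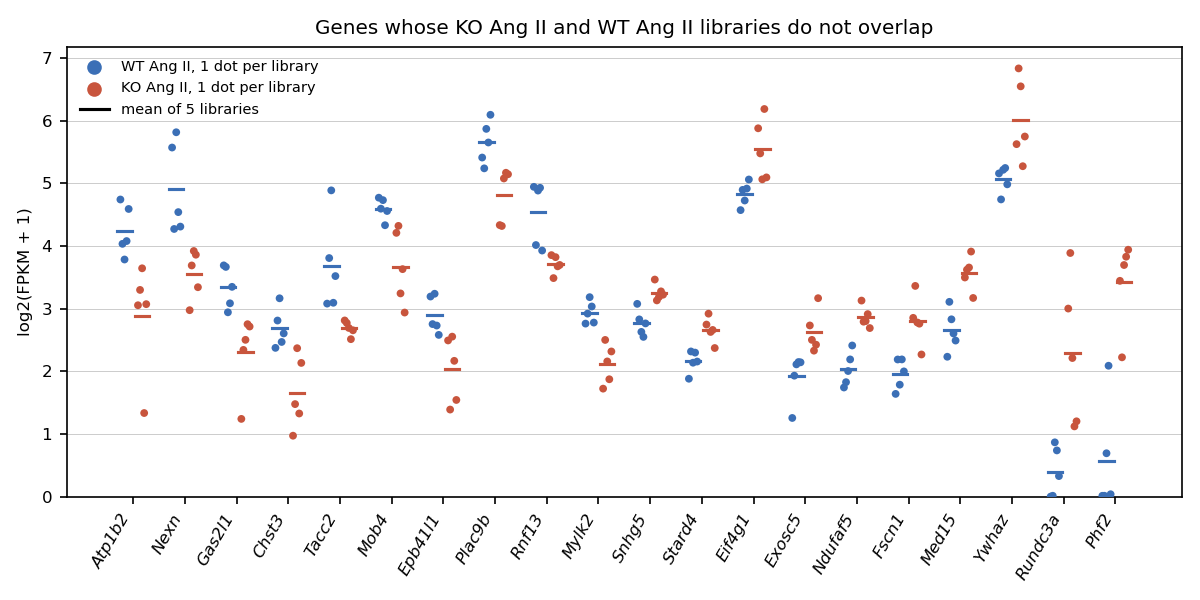
Level in log2(FPKM + 1) (y axis) of the 20 named genes with the largest differences and no overlap, in each WT and KO library (dots) with the mean of 5 (bars). The order runs from Atp1b2 (-1.37) to Phf2 (2.86), and no KO dot of a gene crosses a WT dot of the same gene.

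The series title places DAPK1 in vasoconstriction, so the contractile apparatus was described next. All 24 contractile smooth muscle genes were tested. Of these, 20 had a lower mean in KO and 4 a higher one, with a median difference of -0.39 against -0.01 for all genes. None passed in limma and none was free of overlap, 5 having a lower mean at an unadjusted p under 0.05, against 487 of all 12577 genes. Myh11, the smooth muscle myosin heavy chain, was at 1167, 905, 1280, 668 and 1165 FPKM in WT and at 706, 573, 961, 654 and 647 in KO. Myl9, the regulatory light chain that DAPK1 can phosphorylate, was at 2535, 1846, 2510, 1281 and 2267 FPKM and at 1314, 1060, 1974, 1517 and 1204. In both genes WT580 fell among the KO libraries and KO560 among the WT libraries.

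Tpm2, a tropomyosin, was at 900 ± 234 FPKM in WT and 602 ± 115 in KO, and Synpo2, an actin-binding protein of the muscle Z disc, at 72.3 ± 24.6 and 46.6 ± 8.94 (SD, n = 5). The list's mean log2 level was 7.27 ± 0.37 in WT, 6.96 ± 0.29 in KO and 7.03 ± 0.38 in WT saline. By library it was 7.58, 7.09, 7.51, 6.70 and 7.45 in WT and 6.97, 6.71, 7.42, 7.02 and 6.70 in KO. The median of contractile smooth muscle kept its sign in all 23 alternatives. It was -0.51 without WT580, -0.17 within the libraries that hold intestinal transcripts, described below, and near 0 with the brown adipocyte, sympathetic neuron and skeletal muscle marker levels as covariates.

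Many contractile genes are driven by serum response factor through the CArG box, and 19 of the 24 had a RefSeq promoter (GRCm38.p6, 250 bases before to 50 after the gene start). Only the strict form of the box was searched for, on both strands (CCWWWWWWGG, where W is A or T). It was present in 3 of their 22 promoters (13.6%) and in 1.63% of all 32851 promoters. Boxes with a mismatch or outside these bases were not looked for. The 3 boxes are printed in capitals with 20 bases on each side because they are the strict matches in the listed contractile promoters. With these flanks they span chr10:128493030-128493079 (minus strand), chr2:156775283-156775332 (plus strand) and chr14:20929151-20929200 (plus strand), the boxes starting 50, 161 and 227 bases before the gene start.
Myl6: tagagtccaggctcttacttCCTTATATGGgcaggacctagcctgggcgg
Myl9: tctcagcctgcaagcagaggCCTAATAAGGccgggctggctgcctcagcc
Vcl: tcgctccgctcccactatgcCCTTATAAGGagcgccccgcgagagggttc

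Genes that set the force of contraction showed smaller shifts. Of 22 tested genes of RhoA, ROCK and myosin phosphatase, 16 had a lower and 6 a higher mean in KO, with a median of -0.04. Ppp1r12a, the targeting subunit of myosin phosphatase, was at 110, 91.2, 112, 65.9 and 91.9 FPKM in WT and at 63.3, 64.7, 84.1, 52.5 and 65.3 in KO, where WT580 alone lay among the KO values. Limk1, a kinase downstream of ROCK that acts on cofilin, was at 1.11 to 3.59 FPKM in WT and 3.32 to 8.37 in KO. Prkca, protein kinase C alpha, was at 3.85 ± 0.638 and 5.40 ± 1.29 (SD, n = 5).

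The DAPK family, its partners and substrates were spread around 0. Of 24 tested genes 14 had a higher and 10 a lower mean in KO, with a median of 0.03. Dapk2, a close relative of Dapk1, was at 7.13, 7.96, 5.25, 4.70 and 9.07 FPKM in WT and at 4.61, 3.63, 3.09, 5.18 and 5.63 in KO (difference -0.52 ± 0.20, SE). Stk17b, a more distant relative also called DRAK2, was at 33.8 ± 7.27 and 22.3 ± 5.92 FPKM (SD, n = 5). In both genes the ranges overlapped, and neither stood above WT in KO.

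Of 23 tested vasoconstrictor receptors and calcium entry genes, 15 had a lower mean in KO, with a median of -0.15. Adra1d, the alpha-1D adrenergic receptor through which noradrenaline contracts the aorta, was the one of the list without overlap. Of all tested genes, 0.509% had KO lower without overlap. Adra1d was at 20.1, 14.9, 28.3, 11.4 and 17.6 FPKM in WT and at 11.2, 10.2, 10.2, 8.42 and 10.6 in KO (difference -0.75 ± 0.21, SE), WT580 again being nearest to KO. Itpr1, the receptor that releases calcium from stores, was at 8.26 ± 2.17 and 5.23 ± 2.11 FPKM (SD, n = 5). Agtr1a, the receptor for Ang II, was at 1.45, 3.81, 2.09, 3.99 and 3.0 FPKM in WT and at 7.91, 16.7, 5.81, 1.46 and 4.09 in KO, where only KO612 fell within the WT range. The Agtr1a difference of 0.84 became -0.49 with the marker levels as covariates.

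Among vasodilator signalling and potassium channel genes 18 of 24 had a lower mean in KO, with a median of -0.20, which became 0.02 within the libraries that hold intestinal transcripts and -0.05 with the mean level of the contractile list as a covariate. Pde3a, which breaks down cyclic nucleotides in smooth muscle, was at 25.4 to 49.2 FPKM in WT and 21 to 36.6 in KO. Rgs5, a brake on G protein signalling in mural cells, was at 605 to 1131 FPKM in WT and at 301 to 562 in 4 KO libraries, while KO560 had 1612. The renin-angiotensin system was even, with 7 of 14 genes on each side. Its lysosomal protease Ctsd was at 133 to 359 FPKM in WT and 336 to 451 in KO.

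Matrix genes leaned the same way as the contractile genes. Of 38 collagen and matrix genes 30 had a lower mean in KO, with a median of -0.23. Fbn1, fibrillin 1 of the elastic fibre, was at 61.2, 42.2, 48.7, 31.6 and 59.5 FPKM in WT and at 31.3, 5.03, 38.4, 14.1 and 13.3 in KO (difference -1.46 ± 0.46, SE), with overlap at WT580 and KO560. Spp1, osteopontin, was in the opposite direction at 2.27 to 7.09 and 5.80 to 28.7 FPKM. The sign of the collagen and matrix median turned with the marker levels as covariates (0.27), as it did, barely, with the contractile mean (0.01).

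Energy metabolism leaned the other way. All 34 nuclear oxidative phosphorylation genes had a higher mean in KO, with a median of 0.48, and so did 12 of 13 mitochondrially encoded genes (0.57). Of 24 fatty acid oxidation genes 19 were higher (0.59), as were 24 of 25 genes of lipid synthesis and storage (0.58). None passed in limma and none was free of overlap. A higher mean at an unadjusted p under 0.05 was seen for 1 gene in each of the first 3 lists and for 0 in the last, against 345 of all 12577. Cox5a, a subunit of respiratory complex IV, was at 52.9, 95.1, 73.3, 227 and 84.3 FPKM in WT and at 239, 187, 91.4, 129 and 231 in KO. Hadhb, of the mitochondrial trifunctional protein, was at 40.4, 104, 79.9, 327 and 86.6 FPKM and at 302, 243, 85.9, 143 and 309.

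WT580 carried the highest WT level of both genes and KO560 the lowest KO level. Scd1, the stearoyl-CoA desaturase, had the same 2 libraries at these ends, with 2765 FPKM in WT580 against 417 to 1397 in the other WT libraries and 1156 to 2800 in KO. Atp5c1, a subunit of ATP synthase, was at 84.3 ± 19.5 FPKM in WT and 117 ± 18.5 in KO (SD, n = 5). Ppara, the receptor that switches on fatty acid oxidation genes, was at 0 to 1.32 and 0.311 to 6.47 FPKM. Among mitochondrial transcripts mt-Atp6 was at 653, 893, 724, 8732 and 727 FPKM in WT and at 8270, 6950, 909, 5247 and 10293 in KO, and mt-Nd2 was the one with a lower mean in KO, at 39.1 to 240 and 31.4 to 48.0.

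Markers of brown fat did likewise. The median of the 9 tested brown adipocyte markers was 1.00, with 8 higher in KO, and that of the 10 white adipocyte markers 0.36, with all 10 higher. Otop1, a proton channel of brown fat, was at 2.63, 10.7, 5.84, 30.03 and 5.81 FPKM in WT and at 31.6, 19.5, 6.36, 12.4 and 37.2 in KO. Fabp4, the fatty acid carrier of adipocytes, was at 645 to 3406 FPKM in WT and 1234 to 3353 in KO. The summed level of the brown adipocyte list ran from 148 to 2431 FPKM in WT and from 361 to 2444 in KO, with the top WT value in WT580. With the marker levels as covariates the medians became 0.07 for nuclear oxidative phosphorylation, -0.03 for fatty acid oxidation and -0.14 for lipid synthesis and storage, and that of the white adipocyte markers turned to -0.79.

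Nerve markers were uneven within KO. Of 15 sympathetic neuron genes 14 had a higher mean in KO, with a median of 1.86, and 4 had an unadjusted p under 0.05, against 345 of all 12577 genes. Slc6a2, the noradrenaline transporter, was at 0, 1.86, 0.641, 13 and 0.390 FPKM in WT and at 37.1, 78.9, 27.2, 1.71 and 4.01 in KO, so that KO612 and KO628 lay within the WT range. Uchl1, a neuronal ubiquitin hydrolase, was at 14.9 to 49.4 and 40.8 to 193 FPKM. The list's summed level was 37.4 to 259 FPKM in WT and 61.2 to 1419 in KO. All 12 Schwann cell genes were also higher in KO (median 0.42), but the Schwann cell median turned to -0.24 with the marker levels as covariates. In that fit the difference of Rundc3a was 0.97 in place of 1.90, and that of Ndufaf5 was 0.80 in place of 0.83.

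Of 12 tested members of the intestine list 11 had a higher mean in KO, with a median of 1.67. Of these, 4 were free of overlap, against 49 of all 12577 genes (0.39%), and 10 had an unadjusted p under 0.05, against 345. Reg3b, an antibacterial lectin of the gut lining, was at 0, 0, 0, 2.92 and 5.18 FPKM in WT and at 7.23, 11.7, 11.9, 8.12 and 8.62 in KO. Defa30, a defensin of Paneth cells, was at 0, 0, 0, 1.52 and 1.96 FPKM and at 2.47, 5.02, 5.61, 3.59 and 3.43.

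WT519, WT536 and WT568 thus had none of either transcript, as had all WT saline libraries, and WT580 and WT581 resembled KO. The summed level of the intestine list was 8.39 to 17.9 FPKM in the former 3, with 10 members at 0 in each, 42.1 and 50.7 FPKM in the latter 2, and 43.6 to 93.2 FPKM in KO. The WT libraries therefore fell into 2 sets by transcripts of the intestine list, and KO libraries resembled 1 of them. Where these transcripts came from was not tested. Within the libraries with intestinal transcripts, where WT580 and WT581 were the only WT libraries, 6 of 12577 genes passed in limma. Among them were Hnrnpm (2.65, adjusted p = 0.0268) and Atg4a (1.84, adjusted p = 0.0496), both with higher means in KO. This set leaves out WT519 and WT536, whose Atg4a lay within the KO range, and Atg4a passed in 1 of 23 alternatives. With only WT519, WT536 and WT568 against KO, 13 of 12577 genes passed. Most of them were intestinal genes, whose outcome follows from how these libraries were chosen, and Phf2 (3.19, adjusted p = 0.0382 in limma) was one of the others.

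Hnrnpm, a splicing factor, was at 4.89, 35.0, 6.24, 4.57 and 4.36 FPKM in WT and at 30.6, 36.8, 33.9, 41.7 and 25.5 in KO. WT536 alone stood with KO, and without this one library that goes against the difference Hnrnpm passed at 2.52 (adjusted p = 0.000604 in limma). It passed in 2 of 23 alternatives, both without WT536, with adjusted p up to 0.998 in the others. WT saline libraries ranged from 1.95 to 37.2 FPKM, which spans both levels. Hnrnpd, another RNA-binding protein of this family, was at 3.26 ± 0.892 and 6.11 ± 1.51 FPKM (SD, n = 5). Of all 30 splicing factors tested, 21 had a lower mean in KO, with a median of -0.11.

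Markers of other cell types went in both directions. Of 14 fibroblast markers 11 had a lower mean in KO (median -0.36), with Serpinf1, the secreted protein PEDF, at 171 to 224 FPKM in WT and 85.8 to 195 in KO, and Clec3b at 219 ± 51.4 and 142 ± 61.4 (SD, n = 5). The 14 endothelial genes were split 6 to 8. Pecam1, the junction protein CD31, was at 43.0 to 126 FPKM in WT and 15.2 to 52.1 in KO, whereas Flt1, a receptor for vascular growth factor, was at 5.81 to 18.6 and 13.1 to 22.7. Skeletal muscle markers had a median of -0.70, which became -0.01 without WT580. The 6 mast cell markers were all lower in KO (-0.40) and the 5 erythroid genes too (-0.89).

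Of 17 macrophage markers 10 had a lower mean in KO (-0.13). Folr2, a folate receptor that marks resident macrophages of vessel walls, was at 17.5, 20.3, 14.3, 16.4 and 18.7 FPKM in WT and at 9.0, 14, 10.02, 11.8 and 7.31 in KO, without overlap. Pf4, a chemokine made by the same cells and by platelets, was at 28.3 to 65.3 and 18.4 to 33.1 FPKM. All 7 tested MHC class II genes had a lower mean in KO (-0.22), among them Cd74, the chain that escorts class II molecules, at 95.6 to 178 FPKM in WT and 68.5 to 106 in KO. Csf1, the growth factor of macrophages, was at 22.8, 22.3, 26.9, 26.3 and 40.6 FPKM and at 16.3, 18.1, 18.6, 21.3 and 13.9, again without overlap. Of all 21 cytokine, chemokine and adhesion genes tested, Csf1 included, 10 had a higher mean in KO. Neutrophil markers had a median of 0.72, led by S100a9 at 85.8 FPKM in KO628 and 0 to 13.7 in the other 9 Ang II libraries.

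**Figure D4:**
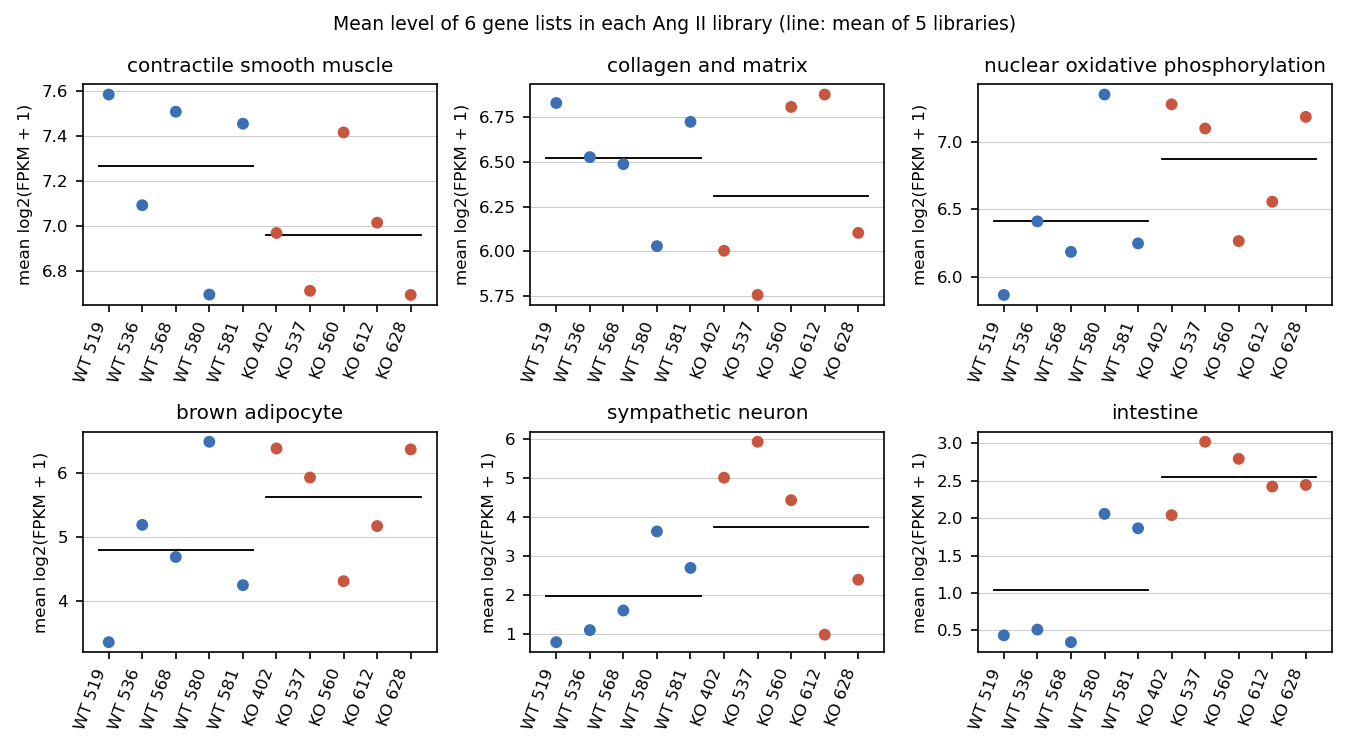
Mean log2(FPKM + 1) (y axis) of 6 gene lists in each Ang II library (x axis, WT blue, KO red), with a line at each group mean. WT580 sits with KO402, KO537 and KO628 for contractile, matrix, oxidative phosphorylation and brown adipocyte genes, KO560 sits with WT for contractile, oxidative phosphorylation and brown adipocyte genes, and the intestine list is low in 3 WT libraries.

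Cell death, autophagy and stress genes, the processes DAPK1 is known for, had medians near 0. Of 27 cell death genes 14 had a higher mean in KO (0.02) and of 30 autophagy genes 14 (-0.005). Over 23 alternatives the median turned its sign in 10 for cell death and in 9 for autophagy. Ripk1, a kinase of inflammatory cell death, was at 12.2, 10.9, 12.7, 10.005 and 11.5 FPKM in WT and at 2.58, 1.87, 9.25, 3.09 and 10.4 in KO. The WT libraries were tightly grouped, and 3 KO libraries stood far below them. Mcl1, a survival factor of the BCL2 family, was at 66.0 ± 6.21 FPKM in WT and 52.3 ± 10.3 in KO (SD, n = 5). Atg4a, a protease of autophagy, was at 10.4, 11.0, 2.59, 2.05 and 2.26 FPKM in WT and 8.91 to 13.5 in KO.

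Heat shock genes had 15 of 21 lower in KO (median -0.07, but 0.17 with the marker levels as covariates). Hspa4l, a chaperone of the Hsp110 family, was at 5.29, 4.98, 6.07, 5.65 and 5.34 FPKM in WT and at 7.34, 9.08, 7.55, 9.80 and 6.69 in KO, the one gene of the list without overlap. Of all tested genes, 0.39% had KO higher without overlap. Dnajb4 was at 40.0 ± 11.2 and 19.3 ± 10.9 FPKM (SD, n = 5). Of 24 genes of the unfolded protein response 16 were higher, with a median of 0.02. Of 27 NADPH oxidase and antioxidant genes 19 were higher (0.14), while Nqo1, a quinone reductase, was at 7.86 to 12.6 and 6.15 to 8.48 FPKM.

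Among 19 cell cycle genes 12 were higher in KO (0.06). Dmtf1, a transcription factor that raises Arf, was at 7.57, 6.36, 6.13, 4.90 and 4.64 FPKM in WT and at 3.55, 2.16, 2.47, 3.10 and 3.29 in KO, without overlap. Ccnd1, cyclin D1, was at 5.23 to 10.5 and 9.52 to 14 FPKM, and Cdkn1a, the inhibitor p21, at 50.7 to 125 and 40.7 to 73.3. Of 22 immediate early genes 14 were lower in KO (-0.18, but 0.10 with the marker levels as covariates), and of 34 ribosomal protein genes 27 (-0.16). Of 20 circadian clock genes 12 were higher (0.15). Arntl, which codes for the clock activator BMAL1, was at 3.03 to 11.8 FPKM in WT and 0.101 to 5.25 in KO. The interferon response had 13 of 22 lower (-0.08), a sign that turned within the libraries that hold intestinal transcripts (0.17).

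**Figure D5:**
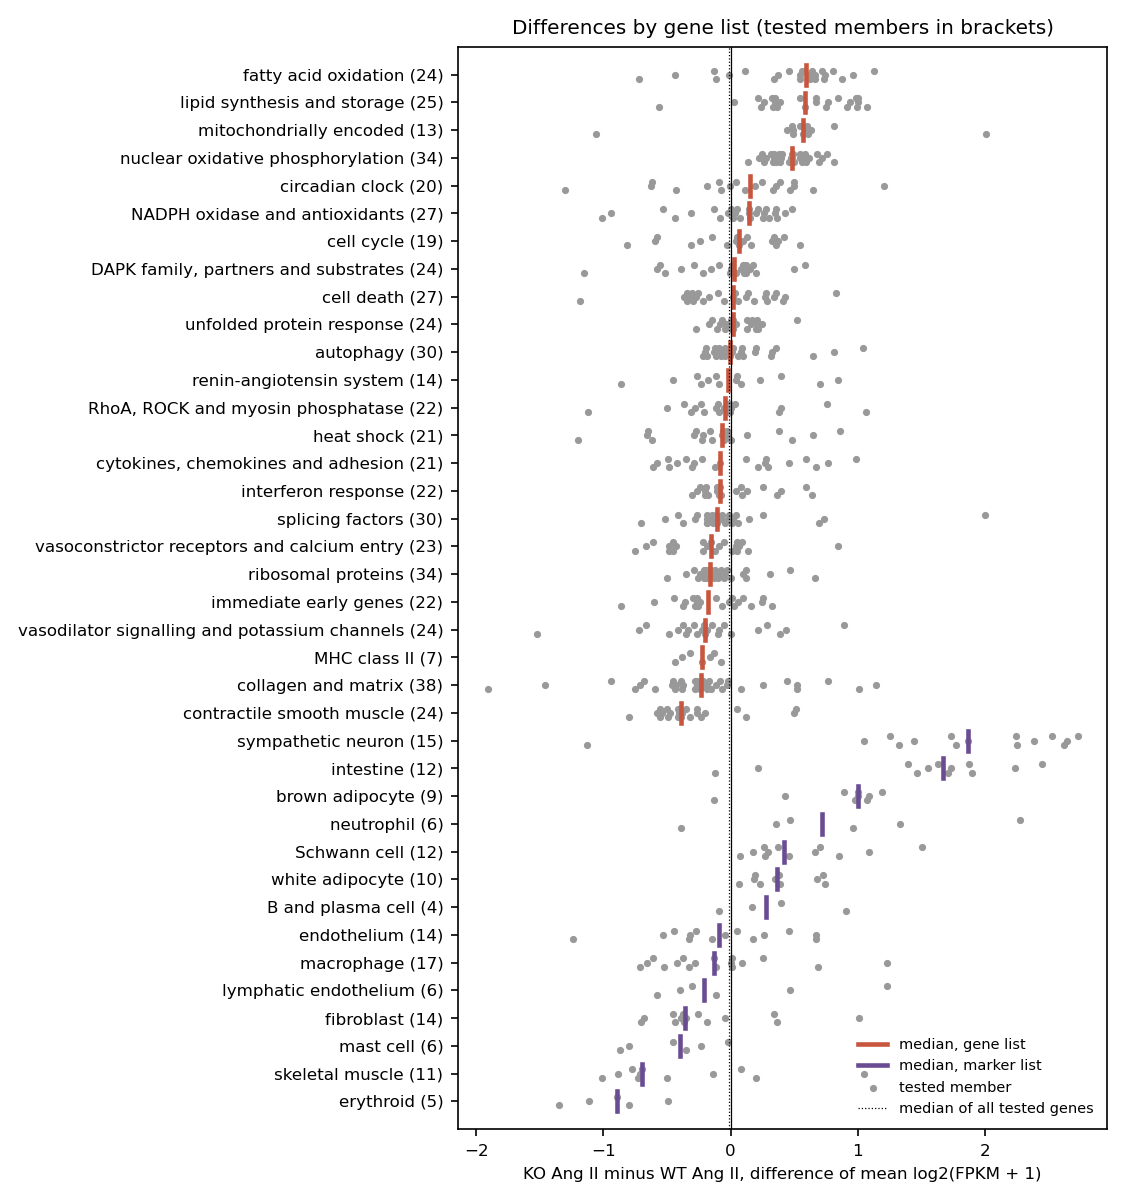
KO minus WT difference in mean log2(FPKM + 1) (x axis) for every tested member of each gene or marker list with at least 4 tested members (grey dots), with the list's median as a bar and the number tested in brackets. Medians run from -0.89 for erythroid genes to 1.86 for sympathetic neuron genes, against -0.01 for all tested genes (dotted).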

How the data were processed

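The authors deposited 1 table per library of values per transcript, read here as FPKM, an inference from the values. The submitters' processing notes name bcl2fastq, FastQC, fastp and mm10; the aligner and quantifier are not stated there. Of the values under 50 reads, 98.7% to 99% lay within 0.05 reads of whole multiples of 1 step per library, which gave the depth and the reads. Transcripts were matched to GENCODE M21 (GRCm38) and added per gene where listed in both tables; 2337 genes had a transcript left out as only 1 table lists it. Differences were tested with limma 3.58.1 (trend and robust options, R 4.3.3) on log2(FPKM + 1), Benjamini-Hochberg adjusted, for a mean of at least 1 FPKM. The pseudocount of 1 understates the differences of low genes. Shares were tested as log2((transcript + 1)/(rest of gene + 1)) for gene means of at least 5 FPKM and mean shares of 10% to 90%. The step was tested on simulated data.

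The 10 genes and 6 transcripts named each way had the largest differences with an unadjusted p under 0.01, no overlap and at least 5 FPKM in the higher group. Unnamed models and intestinal genes were passed over there. The 6 shares and up to 3 members of each list were taken by smallest p alone. Dapk1 was taken as the gene of the series title and Simc1 for its position and lack of overlap. Comparison, lists and rules were chosen with earlier results of these data known, and the sets of libraries with intestinal transcripts too. Alternatives changed the pseudocount, filter, scaling, test, weights, covariates, unlisted transcripts and libraries. KO saline was not used here. Some named members of the lists are not reported here.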

Additional observations from a re-analysis of the deposited data

Results flagged for a closer look

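In groups of 5 libraries, 262 group-wise looks at the named genes, named transcripts and list means found 25 in which 1 library stood apart from the other 4. The cut used gives about 1 in 20 for normally distributed values, which FPKM need not be, and the looks were not independent.

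Among genes and transcripts, Phf2 and its transcript Phf2-201 were at 3.67 FPKM in KO537 and at least 9.88 in the other KO libraries. Ap1g1-201 was at 1.28 FPKM in KO537, Gas2l1 at 1.36 in KO402 and Atp1b2 at 1.52 in KO612, each the low end of its group. Cdkn1a was at 73.3 FPKM in KO612, against at most 47.0 in the other KO libraries. In WT, Hnrnpm was at 35.0 FPKM and Pf4 at 65.3 in WT536, and Exosc5 at 1.39 and Tns1-207 at 53.5 in WT519. S100a9 was at 8.15 FPKM in WT581 and 0 in the other WT libraries. Tgfb1i1-203 was at 0.702 FPKM in WT580. mt-Atp6 was at 8732 FPKM in WT580 and 909.3 in KO560, where each library stood near the level of the other group.

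Among list means on the log2(FPKM + 1) scale, WT536 was high for the renin-angiotensin system (4.09), cytokines, chemokines and adhesion (3.63), endothelium (5.46) and mast cell genes (3.57). KO612 was high for cell cycle (3.45) and immediate early genes (4.28) and low for endothelium (4.05). Fibroblast genes were high in KO560 (7.28), Schwann cell genes low in WT519 (2.14), and B and plasma cell genes high in WT568 (2.68) and KO628 (3.52).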

How the results depend on the processing

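No paired analysis was possible because the animal numbers of the WT and KO groups are not shared. With 5 libraries a group, small differences were not detectable, and large ones did not pass either, such as 2.86 for Phf2 and -3.29 for Iscu-203. A feature that did not pass may thus differ little or much.

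The count of genes that passed was 0 and became 3 with unlisted transcripts at 0 (intestinal genes listed only for KO, so that the setting fixes the call), 6 within the libraries that hold intestinal transcripts, 13 with WT libraries without them, and 0 to 2 without 1 library. The 113 genes without overlap became 60 at a mean of at least 5 FPKM (fewer genes tested), 736 and 1008 in those 2 sets (fewer libraries), and 153 to 573 without 1 library. The 1 transcript that passed became 0 with no filter, a mean of at least 5 FPKM, limma-voom, the 3 marker means or the contractile mean (chosen after seeing the data) as covariates, 21 and 27 in the 2 sets, and 0 to 6 without 1 library. With 15 libraries in 1 fit the 1 transcript that passed was Prkab1-201. Without KO537 it was Ap1g1-201 and without KO560 Atp5h-204, in place of Med15-201. Shares that passed went from 0 to 1 with 15 libraries in 1 fit, 15 and 8 in the 2 sets, and 0 to 7 without 1 library.

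Agtr1a (0.84) became -0.49 and Fabp4 (0.75) -0.24 with the 3 marker means as covariates; the cause was not tested. Of the other recomputed differences of named features, 2078 kept side and direction, 19 now passed and 11, all of Med15-201, no longer did. Of list medians 941 moved by less than the spread and 21 by more.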

Other observations

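Mapk14, which codes for the stress-activated kinase p38 alpha, was chosen after its values were seen. Its forms Mapk14-202 and Mapk14-201 have the same coding length of 1080 nt and differ in a pair of exons of 80 bases each, of which each form holds 1. The exons are printed in capitals between 15 flanking bases from the GENCODE M21 transcripts, on the coding strand. The exon of Mapk14-202 is at chr17:28737011-28737090 and that of Mapk14-201 at chr17:28740680-28740759 (GRCm38, plus strand).
Mapk14-202: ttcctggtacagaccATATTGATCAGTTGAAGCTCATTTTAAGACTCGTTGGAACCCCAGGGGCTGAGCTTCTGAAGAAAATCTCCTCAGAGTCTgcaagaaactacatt
Mapk14-201: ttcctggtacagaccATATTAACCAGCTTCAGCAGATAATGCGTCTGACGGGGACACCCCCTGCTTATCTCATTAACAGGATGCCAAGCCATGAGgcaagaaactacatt

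Mapk14-202 took 64.9%, 82.6%, 83.2%, 96.9% and 94.3% of the gene's FPKM in WT519, WT536, WT568, WT580 and WT581. In KO402, KO537, KO560, KO612 and KO628 it took 32.8%, 31.0%, 49.6%, 31.6% and 33.0%. The groups did not overlap, yet the share of Mapk14-202 did not pass (adjusted p = 0.264 in limma), and in WT saline it ran from 33.8% to 100%. In FPKM, Mapk14-202 was at 3.78 to 23.8 in WT and 2.01 to 4.79 in KO, where WT519 lay within the KO range. Mapk14-201 was at 0.0644 to 4.12 FPKM in WT and 2.26 to 3.60 in KO.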
